A study of Rattus norvegicus with 14 samples.

Results

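The D-type cyclins and the CDK inhibitors control the passage of a cell through the G1 phase. The members were chosen by name: 3 D cyclins (Ccnd1, Ccnd2 and Ccnd3), 3 inhibitors of the CIP/KIP family (Cdkn1a, Cdkn1b and Cdkn1c) and 4 inhibitors of the INK4 family (Cdkn2a, Cdkn2b, Cdkn2c and Cdkn2d). A row was found for 8 of these 10 genes among the 16816 genes of the count table, and Ccnd3 and Cdkn2d were not analysed here. Of the 8 genes, 6 passed the filter on low counts and were tested. Cdkn1c had no count in any library, and Cdkn2a had at most 2 counts in any library.

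D cyclins are made when growth signals reach the cell, bind CDK4 or CDK6 and start the phosphorylation of the retinoblastoma protein, which frees E2F factors to switch on S-phase genes. INK4 proteins bind CDK4 and CDK6 themselves and keep the D cyclins off, whereas CIP/KIP proteins bind cyclin-CDK complexes and block CDK2 in particular. In thyroid follicular cells thyrotropin and insulin together drive this step. The culture medium of these cells contained both hormones.

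RNA-seq was performed on PCCL3 cells, a rat thyroid follicular line, stably transfected either with empty vector (EV cells) or with Myc-tagged PPFP, the human PAX8-PPARG fusion protein of thyroid cancer (PPFP cells). Both lines were treated for 16 hours with 1 µM pioglitazone, a thiazolidinedione ligand of PPARG, or with its DMSO vehicle, with 3 libraries in each of the 4 groups. PPFP cells and EV cells were separate stable transfectants, so that the effect of the fusion and other differences between the lines cannot be told apart. Whether each line was 1 clone or a pool is not given in the sources used here.

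The libraries held 23724703 to 35240176 counts in genes. The fusion checked the labels: the Pparg row, which can take up reads of the fusion, was at 46.9 to 60.4 CPM (counts scaled to a common library size) in PPFP cells without pioglitazone and at 1.20 to 1.81 CPM in EV cells. The 9 thyroid follicular markers summed to between 10206 and 14681 CPM over the 12 libraries, of which Tg, the thyroglobulin gene, made up 6463 to 12125 CPM. By edgeR's quasi-likelihood test 2 of these 9 markers were higher and 5 lower in PPFP cells without pioglitazone, against 45.2% of all genes. With pioglitazone in PPFP cells 1 rose and 5 fell, against 14.8% of all genes, and with paired libraries 1 rose and 8 fell, against 51.6%. Leukocyte markers summed to at most 1.49 CPM, with 1 of 5 at 0 in all libraries, and endothelial markers to at most 0.201 CPM, with 1 of 3 at 0. Fibroblast markers summed to between 20.4 and 34.5 CPM, with 2 of 6 at 0, and Pdgfra alone was at 19.0 to 32.1 CPM. At most 3 counts in every library were found for 3 of the 5 leukocyte, 2 of the 3 endothelial and 3 of the 6 fibroblast markers, those at 0 included. Cd68, the leukocyte marker that could be tested, was higher in PPFP cells without and with pioglitazone (log2 fold changes 0.86 and 1.18, edgeR's adjusted p = 0.0480 and 0.0156). The call without pioglitazone was lost with DESeq2 and with the replicate number as a block (edgeR's adjusted p = 0.124). It rested on 13 to 19 counts in EV libraries and 20 to 32 in PPFP libraries. Of 2 fibroblast markers tested, Pdgfra was higher in PPFP cells with pioglitazone (0.46, adjusted p = 0.0143), and in the paired test 1 rose and 1 fell with pioglitazone in PPFP cells. The part of these markers in the results was not tested.

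The cultures differed in the level of proliferation genes, with ranges that overlapped between the groups. The summed level of 20 proliferation genes (Mki67, Pcna, the MCM genes and others) was 3297, 2221 and 4595 CPM in EV libraries 1, 2 and 3 without pioglitazone and 3196, 1668 and 4451 CPM with it. In PPFP cells it was 5700, 3282 and 3414 CPM without pioglitazone and 6094, 3905 and 3841 CPM with it. EV library 3 and PPFP library 1 were thus the most proliferative of their lines under both treatments, and EV library 2 the least proliferative. None of the 20 genes differed between the lines without pioglitazone at an adjusted p under 0.05 by edgeR's quasi-likelihood test, against 45.2% of all genes. With the replicate number as a block 2 were higher, where 39.5% of all genes passed in either direction. At an unadjusted p under 0.05 there was 1 gene. DESeq2 and the exact test of edgeR each called 1, against 4959 and 4758 of 10264 genes. The median log2 fold change of the list was 0.28, against 0.0016 over all genes tested.

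The promoters of the members were examined for sequence features. RefSeq's table for the build GRCr8 had an entry for 7 of the 10 genes, but not for Ccnd1, Ccnd2 or Cdkn1c, which were not searched. For each of the 7, the 250 bases before a listed start were searched on both strands for 5 motifs. Printed here are the promoters of Cdkn2b, an inhibitor that differed between the lines and changed with pioglitazone in PPFP cells, and of Cdkn1a, the member with the largest difference between the lines. Capitals mark the motifs found on either strand.
Cdkn2b, GRCr8 chr5:109134856-109135105, minus strand: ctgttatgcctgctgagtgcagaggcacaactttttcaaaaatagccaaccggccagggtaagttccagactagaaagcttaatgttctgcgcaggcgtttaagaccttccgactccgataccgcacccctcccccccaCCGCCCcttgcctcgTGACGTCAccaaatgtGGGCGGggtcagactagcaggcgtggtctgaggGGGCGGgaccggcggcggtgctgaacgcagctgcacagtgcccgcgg
Cdkn1a, GRCr8 chr20:7150682-7150931, plus strand: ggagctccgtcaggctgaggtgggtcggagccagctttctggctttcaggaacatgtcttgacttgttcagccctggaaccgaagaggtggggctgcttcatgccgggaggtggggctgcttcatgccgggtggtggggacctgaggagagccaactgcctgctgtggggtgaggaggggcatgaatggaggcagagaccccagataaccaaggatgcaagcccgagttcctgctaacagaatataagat

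The Cdkn2b window held the palindrome TGACGTCA, the cAMP response element, whose first base lay 96 bases before the start. Among 33469 promoter windows of this length, 1.59% held this motif, and Cdkn2b was the only one of the 7 members with it. The same window held the GC box GGGCGG at 3 places, 111, 80 and 47 bases before the start. A GC box was present in the windows of 6 of the 7 members and in 30.5% of all windows, and the Cdkn1a window was without it. Any other starts of the members were not searched, so this does not speak for the whole promoter of a gene. CCAAT was found in Ccnd3 and Cdkn1b and in 34.0% of all windows. The half-site AGGTCA, read by nuclear receptors, was found in Cdkn2a and in 14.1% of all windows. AGGTCANAGGTCA, in which N is any base, contains the half-site 2 times. It was found in none of the 7 members searched, which leave out Ccnd1 and Ccnd2, and in 0.0508% of all windows. These letter matches are descriptions of the reference sequence, and binding at them was not examined here.

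**Figure D1:**
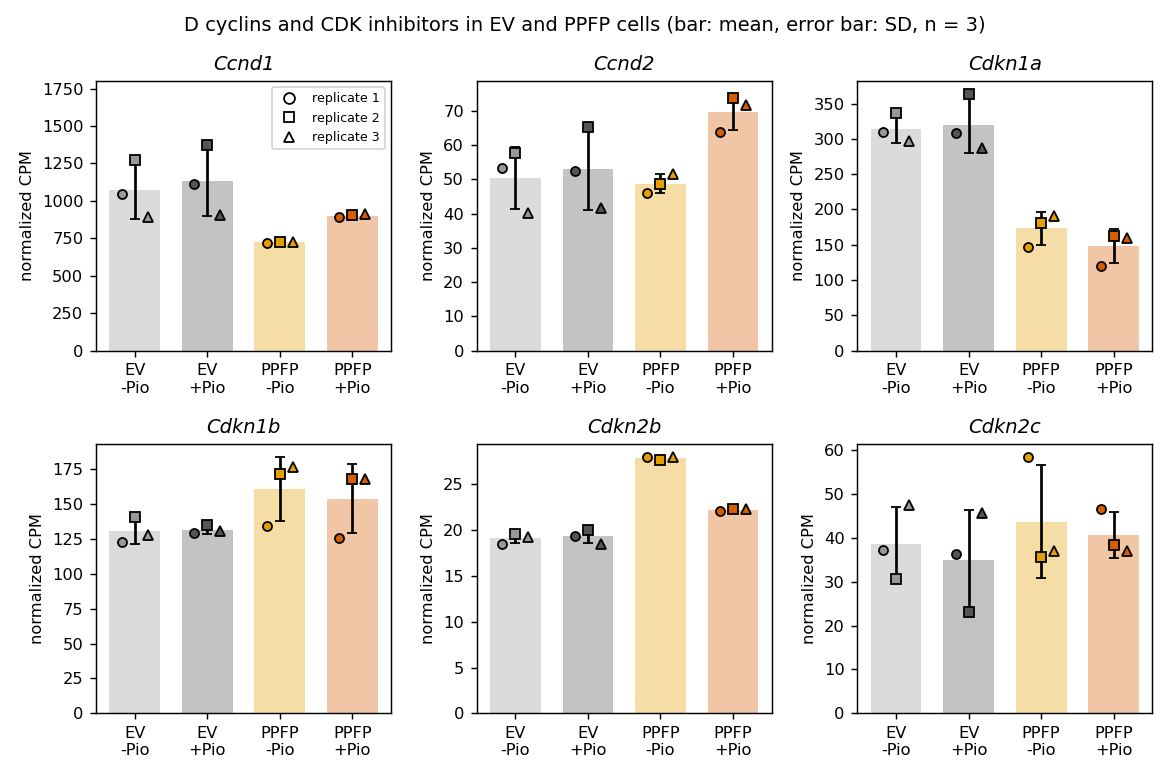
Normalized CPM (vertical axis, from 0) of the 6 tested members in EV and PPFP cells without (-Pio) and with (+Pio) pioglitazone. Bars are means with SD (n = 3), and circles, squares and triangles are libraries 1, 2 and 3. Cdkn1a stood between 120 and 191 CPM in PPFP cells, below all 6 EV libraries, and Cdkn2b was highest in PPFP cells without pioglitazone.

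Ccnd1, which had more counts than Ccnd2, the other D cyclin measured, was lower in PPFP than in EV cells, and pioglitazone raised it in PPFP cells. Its level was 1043, 1273 and 895 CPM in EV libraries 1, 2 and 3 without pioglitazone and 720, 723 and 725 CPM in PPFP cells. All 3 PPFP libraries lay below all EV libraries, and they differed from each other by far less than the EV libraries did. The log2 fold change was -0.57 (SE 0.13), a change of -32.5%, with an adjusted p of 0.00921 by edgeR's quasi-likelihood test. In the spread of EV cells Ccnd1 ran against the proliferation genes, being highest in library 2 and lowest in library 3 under both treatments, and the part of this in the difference between the lines was not tested.

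With pioglitazone, Ccnd1 was at 890, 906 and 910 CPM in PPFP cells, above all 3 PPFP libraries without it. This was a log2 fold change of 0.33 (SE 0.041), a rise of 25.8% (adjusted p = 0.00389, edgeR's quasi-likelihood test). With the libraries paired by number within the line the change was again 0.33, with an adjusted p of 3.86e-08. The rise fell short of the threshold when all 12 libraries shared one estimate of the spread (adjusted p = 0.216). In EV cells with pioglitazone Ccnd1 stood at 1112, 1372 and 906 CPM, which overlapped the untreated EV libraries (log2 fold change 0.08, SE 0.18, 95% interval -0.36 to 0.52). The mean levels were ordered EV with pioglitazone (1130 ± 233 CPM, SD, n = 3), EV without (1070 ± 190), PPFP with (902 ± 10.5) and PPFP without (723 ± 2.41). Of neighbours in this order, the 2 EV groups overlapped, and so did EV cells without and PPFP cells with pioglitazone, but the 2 PPFP groups did not.

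Between the lines in the presence of pioglitazone the difference in Ccnd1 was smaller and did not pass the test (log2 fold change -0.31, SE 0.14, edgeR's adjusted p = 0.106). It passed when EV library 3, the most proliferative one, was left out, with a log2 fold change of -0.46 and an adjusted p of 0.0119. Without EV library 2, the least proliferative one, it was -0.15 (adjusted p = 0.225).

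Ccnd2, a D cyclin that often responds to other signals than Ccnd1, did not differ detectably between the lines without pioglitazone and rose with pioglitazone in PPFP cells. Without pioglitazone it was at 53.4, 57.5 and 40.3 CPM in EV libraries and at 46.1, 48.7 and 51.5 CPM in PPFP libraries. The PPFP libraries lay within the range of the EV libraries (log2 fold change -0.05, SE 0.14, 95% interval -0.37 to 0.27). With pioglitazone it was at 63.8, 73.7 and 71.6 CPM in PPFP cells, above every untreated PPFP library. It had a log2 fold change of 0.53 (SE 0.085), a rise of 44.1% (adjusted p = 0.00966, edgeR's quasi-likelihood test). With paired libraries it was 0.53 as well, with an adjusted p of 1.43e-09.

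The call for Ccnd2 was lost narrowly without PPFP library 2 with pioglitazone (log2 fold change 0.48, adjusted p = 0.0504) and with all 12 libraries in one fit (adjusted p = 0.0672). In EV cells with pioglitazone Ccnd2 stood at 52.4, 65.3 and 41.5 CPM, overlapping the untreated EV cells (log2 fold change 0.07, SE 0.19). PPFP cells with pioglitazone thus had the highest mean of the 4 groups, 69.7 ± 5.23 CPM (SD, n = 3), but 1 EV library with pioglitazone reached into their range. Between the lines with pioglitazone the log2 fold change was 0.41 (SE 0.16), with an adjusted p of 0.0602 by edgeR's quasi-likelihood test. It was under the threshold with the exact test of edgeR (0.0389), DESeq2 (0.0467) and the replicate number as a block (0.0499). This also passed the threshold without EV library 2, the least proliferative one, at 0.58 (adjusted p = 0.0107). Without EV library 3 it was 0.24 (adjusted p = 0.138).

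The balance of the 2 measured D cyclins differed between the lines. Ccnd2 made up 4.87%, 4.33% and 4.31% of the counts of Ccnd1 and Ccnd2 together in EV libraries 1, 2 and 3 without pioglitazone, and 4.50%, 4.54% and 4.38% with it. In PPFP cells the share was 6.01%, 6.31% and 6.63% without pioglitazone and 6.68%, 7.52% and 7.29% with it. The share was higher in every PPFP library than in every EV library, and higher in every treated PPFP library than in every untreated one. These are shares of read counts and not of molecules, since the counts were not divided by transcript length.

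Cdkn1a encodes p21, the CIP/KIP inhibitor that blocks CDK2 in arrested cells and also helps D cyclins assemble with their kinases. It was the member with the largest difference between the lines. It stood at 309, 336 and 296 CPM in EV libraries and at 147, 181 and 191 CPM in PPFP libraries without pioglitazone, so that the lowest EV library was well above the highest PPFP library. The log2 fold change was -0.86 (SE 0.11), a change of -44.8% (adjusted p = 0.000784, edgeR's quasi-likelihood test). With pioglitazone it was at 308, 364 and 287 CPM in EV libraries and at 120, 163 and 160 CPM in PPFP libraries, again without overlap. There the log2 fold change was -1.09 (SE 0.15), a 2.13-fold difference, with an adjusted p of 0.000716.

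Within PPFP cells, Cdkn1a was lower with pioglitazone in each of the 3 numbered pairs of libraries, by 0.15 to 0.29 on the log2 scale. The ranges of the 2 groups overlapped, since PPFP library 1 was the lowest under both treatments. The unpaired test gave a log2 fold change of -0.22 (SE 0.15, adjusted p = 0.424, and -0.34 to -0.10 without single libraries, the ends being those without PPFP library 1 without and with pioglitazone), and the paired test -0.22 (SE 0.038), with an adjusted p of 3.90e-05 by edgeR. In EV cells the paired changes were -0.01, 0.11 and -0.04. PPFP library 1, the lowest in Cdkn1a, was also the PPFP library with the highest level of proliferation genes, and the part of this was not tested.

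Cdkn1b encodes p27, the CIP/KIP inhibitor that holds quiescent cells in G1 and is controlled largely at the level of its protein. Its RNA was at 123, 141 and 128 CPM in EV libraries and at 134, 172 and 176 CPM in PPFP libraries without pioglitazone. PPFP library 1 lay within the EV range, and the other two PPFP libraries lay above it. Between the lines the log2 fold change was 0.30 (SE 0.12, adjusted p = 0.0769, edgeR's quasi-likelihood test). Without PPFP library 1 it was 0.44, with an adjusted p of 0.00798. Without other single libraries it was as low as 0.24, with adjusted p-values of up to 0.225 by the same test. With pioglitazone the values were 129, 135 and 130 CPM in EV cells and 125, 168 and 168 CPM in PPFP cells. The log2 fold change between the lines was 0.24 (SE 0.13, adjusted p = 0.145), and 0.38 without PPFP library 1 (adjusted p = 0.00590). Without PPFP library 2 or 3 it was 0.15 (adjusted p = 0.428 and 0.420). Pioglitazone gave a log2 fold change of -0.05 in PPFP cells and 0.01 in EV cells, and neither passed the test, paired or not.

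The 2 CIP/KIP genes stood in a different ratio in the lines. There were 0.397, 0.419 and 0.431 counts of Cdkn1b per count of Cdkn1a in EV libraries 1, 2 and 3, and 0.909, 0.947 and 0.922 in PPFP cells. With pioglitazone the ratio was 0.370 to 0.453 in EV cells and 1.03 to 1.05 in PPFP cells. PPFP library 1 was close to the other two in this ratio, although its level of each gene was lower. Ccnd1 counts per count of Cdkn1a were 3.02 to 3.79 in EV cells and 3.79 to 4.88 in PPFP cells without pioglitazone, and 3.15 to 3.77 and 5.56 to 7.39 with it. The third CIP/KIP gene, Cdkn1c, which encodes p57, had 0 counts in all 12 libraries. A count of 0 allows up to 3 counts per library, so that the level was below detection at this depth.

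Cdkn2b encodes p15, the INK4 inhibitor known as a target of TGF-beta signalling. It varied little between libraries and changed in both directions. It stood at 18.5, 19.5 and 19.3 CPM in EV libraries and at 27.9, 27.7 and 28.0 CPM in PPFP libraries without pioglitazone, with no overlap. This was a log2 fold change of 0.54 (SE 0.083), a rise of 45.9% (adjusted p = 0.00145, edgeR's quasi-likelihood test). With pioglitazone it was at 22.1, 22.3 and 22.3 CPM in PPFP cells, below all untreated PPFP libraries and above all EV libraries. The log2 fold change with pioglitazone in PPFP cells was -0.32 (SE 0.055), a change of -19.7%, with an adjusted p of 0.0132, and with paired libraries the adjusted p was 5.88e-05.

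In EV cells with pioglitazone Cdkn2b was at 19.4, 19.99 and 18.5 CPM (log2 fold change 0.01, SE 0.083). The remaining difference between the lines with pioglitazone was 0.22 (SE 0.082), with an adjusted p of 0.0588 by edgeR's quasi-likelihood test, and of 0.0197 with all 12 libraries in one fit. The unpaired call for the fall in PPFP cells was lost without PPFP library 3 without pioglitazone (adjusted p = 0.0684) and without PPFP library 2 or 3 with it (adjusted p = 0.0669 and 0.0568), at log2 fold changes of -0.31, -0.33 and -0.33. The rise in PPFP cells and the fall with pioglitazone share the 3 untreated PPFP libraries, as do the lower level and the rise of Ccnd1, so neither pair of opposite changes is made of independent measurements.

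Cdkn2c encodes p18, an INK4 inhibitor that E2F factors induce in cycling cells. It showed no difference that held up against its spread. It was at 37.1, 30.7 and 47.5 CPM in EV libraries and at 58.4, 35.6 and 36.9 CPM in PPFP libraries without pioglitazone. With pioglitazone it was at 36.2, 23.0 and 45.6 CPM in EV libraries and at 46.6, 38.3 and 37.0 CPM in PPFP libraries. The 4 groups overlapped, and the log2 fold change between the lines was 0.18 (SE 0.23, 95% interval -0.35 to 0.72) without pioglitazone and 0.23 (SE 0.24) with it. In each group the library with the most Cdkn2c was the one with the highest level of proliferation genes. Pioglitazone gave log2 fold changes of -0.10 (SE 0.20) in PPFP cells and -0.14 (SE 0.27) in EV cells, and neither passed the test, paired or not.

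Cdkn2a, which encodes p16 and the p19Arf protein, was at the floor. It had 0, 0 and 1 counts in EV cells and 1, 2 and 1 counts in PPFP cells without pioglitazone, and 0 counts in all 6 libraries with pioglitazone. No fold is given for it, since every group was at or under 3 counts per library.

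**Figure D2:**
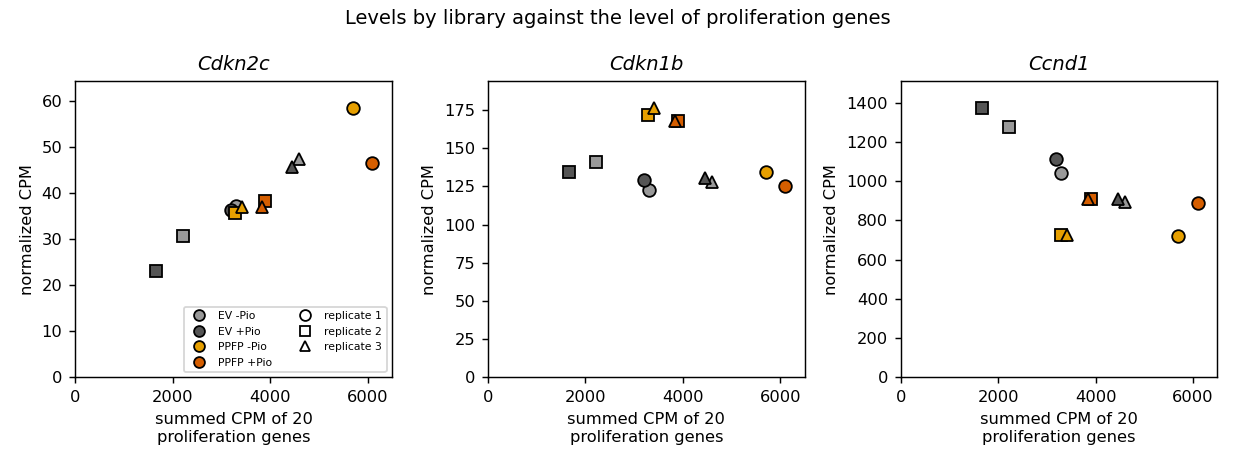
Normalized CPM of Cdkn2c, Cdkn1b and Ccnd1 (vertical axes, from 0) in each of the 12 libraries against the summed CPM of 20 proliferation genes (horizontal axis). Colours are groups and shapes are library numbers. Cdkn2c was lowest, at 23.0 CPM, in the library with the lowest sum, 1668 CPM, and Ccnd1 was highest there, at 1372 CPM.

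Read as a group without pioglitazone, 3 of the 6 tested members differed between the lines: Ccnd1 and Cdkn1a were lower and Cdkn2b was higher in PPFP cells. Of all 10264 genes tested, 45.2% differed at the same threshold by edgeR's quasi-likelihood test, so this share of members was close to the background. The same 3 members had groups that did not overlap, as did 56.5% of genes. None of the 6 also exceeded a 2-fold change, which 14.6% of genes did. By DESeq2 and by the exact test of edgeR the same threshold also called 3 members, against 4959 and 4758 of the 10264 genes.

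With pioglitazone in both lines only Cdkn1a of the 6 members passed edgeR's quasi-likelihood test, against 52.7% of 10291 genes. The exact test of edgeR and DESeq2 each called Ccnd2 as well, with adjusted p-values of 0.0389 and 0.0467. These tests called 5474 and 5712 of the 10291 genes. Cdkn1a was also past 2-fold, as 19.7% of genes were. Cdkn1a and Cdkn2b had groups that did not overlap, against 62.9% of genes.

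**Figure D3:**
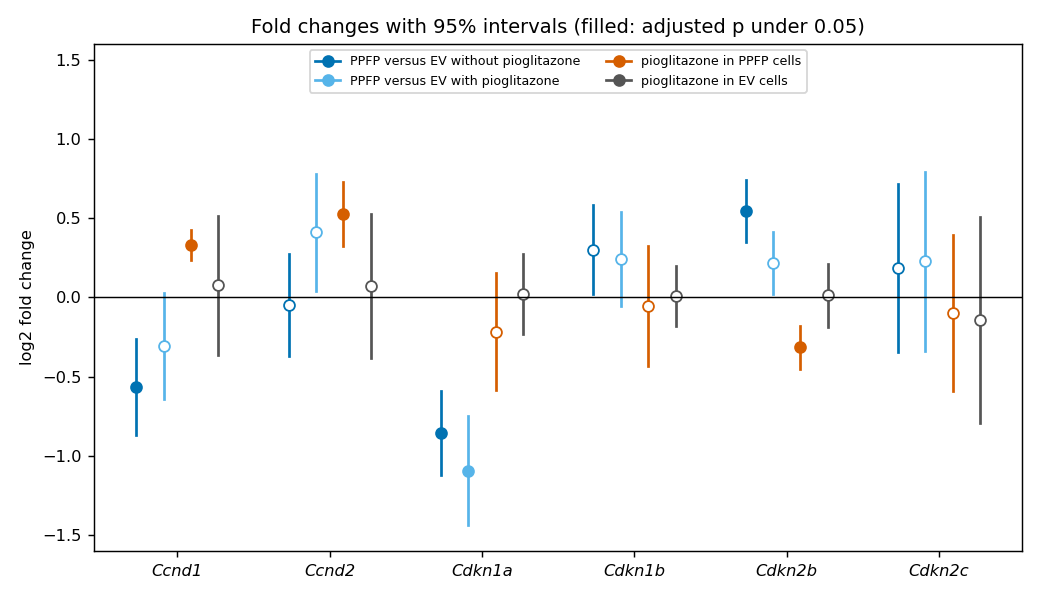
Log2 fold change (vertical axis) of the 6 tested members in the 4 comparisons, with 95% intervals as lines. Filled points had an adjusted p under 0.05 by edgeR's quasi-likelihood test. Cdkn1a was the only member with filled points in both comparisons of the lines, at -0.86 and -1.09, and no EV point was filled.

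Pioglitazone in PPFP cells changed 3 of the 6 members, with Ccnd1 and Ccnd2 rising and Cdkn2b falling, whereas 14.8% of 10064 genes passed the same test. These 3 members were also those whose treated and untreated libraries did not overlap, against 34.4% of genes. In the paired test 4 of the 6 members passed, Cdkn1a being the addition, and 51.6% of all genes did, so the share of members was not far from the background there. The paired changes of Ccnd1 in PPFP cells were 0.31, 0.33 and 0.33 on the log2 scale in pairs 1, 2 and 3. Those of Ccnd2 were 0.47, 0.60 and 0.48, and those of Cdkn2b were -0.34, -0.31 and -0.33. The 3 genes moved the same way in 3 of 3 pairs.

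Pioglitazone in EV cells changed none of the 6 members, and the percentage of genes called was 0% of 10146. At an unadjusted p under 0.05 there were 16 genes (0.158%) and no member by edgeR's quasi-likelihood test. The exact test of edgeR gave 11 such genes and DESeq2 gave 7, none of them a member, and neither called any gene after adjustment. The paired test gave 605 genes at an unadjusted p under 0.05 and called 1 gene after adjustment, none of them a member. The log2 fold changes of the members in EV cells were between -0.14 and 0.08. With paired libraries the 95% interval was -0.02 to 0.16 for Ccnd1, -0.04 to 0.17 for Ccnd2 and -0.317 to 0.00298 for Cdkn2c, the widest of the 6.

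The difference between the 2 responses to pioglitazone was tested as the interaction of cell line and treatment over the 12 libraries. Without pairing none of the 6 members passed, as against 2.64% of 10482 genes. Cdkn2b alone had an unadjusted p under 0.05, with a difference of -0.34 (SE 0.091) and an adjusted p of 0.0804, and DESeq2 called it (adjusted p = 0.0198). With the libraries paired within each line 4 of the 6 members passed, against 34.3% of all genes by edgeR's quasi-likelihood test. The response was higher in PPFP than in EV cells by 0.25 (SE 0.048) for Ccnd1, with an adjusted p of 0.00134, and by 0.45 (SE 0.066) for Ccnd2, with an adjusted p of 0.000155. It was lower for Cdkn1a, at -0.25 (SE 0.054, adjusted p = 0.00268), and for Cdkn2b, at -0.34 (SE 0.071, adjusted p = 0.00222). For Cdkn1b and Cdkn2c the differences of -0.08 and 0.07 did not pass. The 20 proliferation genes moved beside the members: all 20 differences were positive, with a median of 0.28, and 19 passed in the paired test and none without pairing. Their part in the members' differences was not tested.

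**Figure D4:**
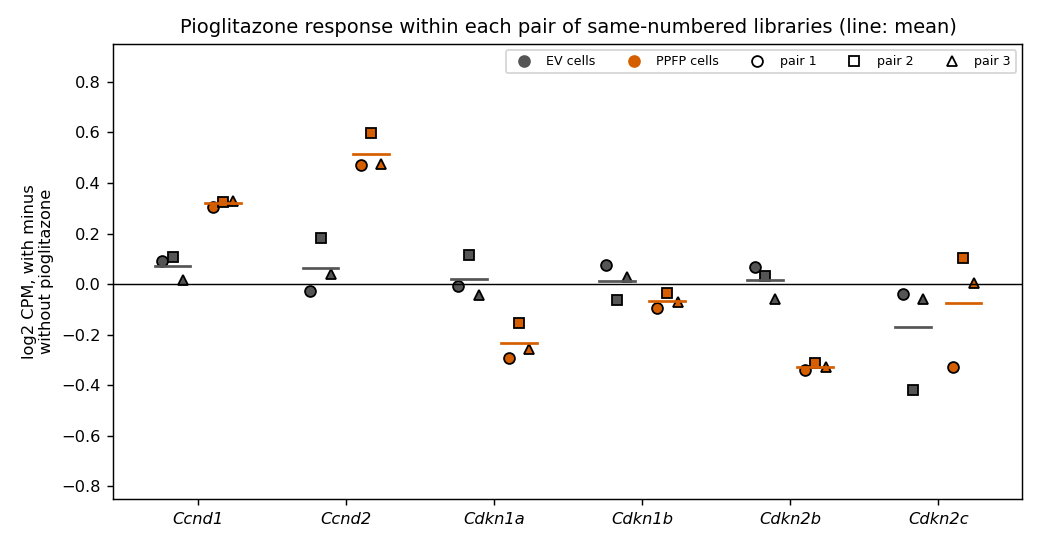
Change in log2 CPM with pioglitazone (vertical axis) within each pair of same-numbered libraries of EV cells (grey) and PPFP cells (orange), for the 6 tested members. Shapes are pairs and short lines are means of 3 pairs. In PPFP cells all pairs of Ccnd1 and Ccnd2 lay above 0 and all pairs of Cdkn1a, Cdkn1b and Cdkn2b below 0, while EV pairs of Ccnd1, Ccnd2, Cdkn1a and Cdkn2b lay closer to 0.

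The kinases and other partners of the members were read from a list of 35 G1 genes, of which 29 were tested. Without pioglitazone 2 of the 29 were higher in PPFP cells and 2 were lower by edgeR's quasi-likelihood test, fewer than the 45.2% of all genes that differed. DESeq2 and the exact test of edgeR each called 6, against 4959 and 4758 of 10264 genes. Cdk2, the kinase of cyclins E and A that p21 and p27 block, was at 214 to 341 CPM in PPFP cells and at 73.1 to 115 CPM in EV cells (log2 fold change 1.44, SE 0.22, edgeR's adjusted p = 0.00159). Cdk4, the partner of the D cyclins, was slightly higher, with a log2 fold change of 0.31 (SE 0.086, adjusted p = 0.0200). Tfdp2, a dimer partner of E2F factors, was lower (log2 fold change -0.38, SE 0.10, adjusted p = 0.0173). Cdkn3, a phosphatase that acts on CDK2, had 32 to 67 counts in EV libraries and 0 to 4 counts in PPFP libraries (adjusted p = 0.000979). Cdk6, Rb1, Ccne1 and Ccne2 did not pass, with log2 fold changes of -0.08, 0.27, -0.22 and -0.53. The median of the 29 genes was 0.02, against 0.0016 over all genes tested.

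With pioglitazone 7 of the 29 partners were higher and 5 lower in PPFP than in EV cells by edgeR's quasi-likelihood test, against 52.7% of all genes. DESeq2 called 15 and the exact test 12, against 5712 and 5474 of 10291 genes. Cdk2 was at a log2 fold change of 2.24 (SE 0.25, edgeR's adjusted p = 0.000286), Rb1 at 0.34 and Cdk6 at -0.50. In PPFP cells pioglitazone itself raised 2 of 28 tested partners and lowered 1, against 14.8% of all genes. DESeq2 called 6 and the exact test 4, against 2010 and 1628 of 10064 genes. Cables1, a cyclin-dependent kinase adaptor, rose (0.78, SE 0.11, adjusted p = 0.00643), as did E2f4, a repressive E2F factor (0.24, SE 0.058, adjusted p = 0.0396). Cdk6, the other kinase partner of D cyclins, fell, at -0.51 (SE 0.092, adjusted p = 0.0149), from 13.6 to 15.2 CPM without to 9.14 to 10.3 CPM with pioglitazone. With paired libraries 11 partners rose and 5 fell, against 51.6% of all genes. In EV cells none of the 29 passed by edgeR's quasi-likelihood test, paired or not, and none was called by DESeq2 or the exact test. At an unadjusted p under 0.05 there was none without pairing and 1 with it.

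Of 24 genes known to act upstream of D cyclins or inhibitors, 23 were tested, and 5 were higher and 9 lower in PPFP cells without pioglitazone, where 45.2% of all genes differed. Myc, which represses Cdkn1a and Cdkn2b in many cells, was higher (log2 fold change 1.54, SE 0.32, edgeR's adjusted p = 0.00636), at 70.3 to 124 CPM against 24.3 to 53.2 CPM. Cbx7, a Polycomb subunit known as a repressor of the Cdkn2a locus, was lower (-1.33, SE 0.20, adjusted p = 0.00138). Id3, an inhibitor of basic helix-loop-helix factors, was also lower (-0.98, SE 0.087, adjusted p = 0.000121). Mdm2, a ubiquitin ligase, was higher (0.69, SE 0.083, adjusted p = 0.000476). The median over the 23 genes was -0.08. With pioglitazone 6 were higher and 9 lower, where 52.7% of all genes differed.

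In PPFP cells pioglitazone raised 1 of these 23 genes and lowered 3, against 14.8% of all genes, and with paired libraries 8 rose and 5 fell, against 51.6%. Rbm38, an RNA-binding protein that stabilizes the Cdkn1a transcript, rose by a log2 fold change of 0.51 (SE 0.12, edgeR's adjusted p = 0.0399). Id3 fell further (-0.37, SE 0.045, adjusted p = 0.00369), and Ets1, an ETS factor, fell too (-0.27, SE 0.054, adjusted p = 0.0205).

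The proliferation genes were also read with pioglitazone. In PPFP cells none of the 20 passed edgeR's quasi-likelihood test without pairing, none had an unadjusted p under 0.05, and DESeq2 and the exact test called none, although all 20 fold changes were positive, with a median of 0.15. With paired libraries 15 of the 20 rose and none fell, where 51.6% of all genes passed in either direction. In EV cells all 20 were negative, with a median of -0.12, and none passed after adjustment, paired or not. At an unadjusted p under 0.05 there was none of the 20 without pairing and 13 with it. Mki67, the marker of cycling cells, had a log2 fold change of 0.23 (SE 0.12) in PPFP cells, and Pcna, the sliding clamp of DNA replication, 0.08 (SE 0.20), and neither passed without pairing. Between the lines with pioglitazone 1 of the 20 was higher by edgeR's quasi-likelihood test, where 52.7% of all genes differed. The exact test called 3 and DESeq2 called 4, against 5474 and 5712 of 10291 genes. With the replicate number as a block 5 were higher, where 44.2% of all genes passed in either direction. The rise of Ccnd1 and Ccnd2 and the falls of Cdkn1a and Cdkn2b in PPFP cells with pioglitazone therefore stood beside a higher level of proliferation genes in the paired libraries, and the part of the one in the other was not tested.

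For each tested member the 2 genes with the most similar profile over the 12 libraries were found among 9632 other genes with a mean of at least 1 CPM, by the root mean square difference of centred log2 CPM. Cdkn2b had the closest match, Itm2b, at a difference of 0.046 where the median gene was at 0.333. Itm2b was at 242 ± 9.16, 244 ± 9.35, 334 ± 13.0 and 271 ± 7.35 CPM (SD, n = 3) in EV cells without and with and PPFP cells without and with pioglitazone. The order of its groups was that of Cdkn2b, which follows from the choice by profile and is no separate finding. The second match of Cdkn2b was Jkamp, at 0.061. The matches of Cdkn1b were Tmf1 (0.056) and Zfp426 (0.067), and those of Ccnd2 were Cry2 and Net1 (both 0.071).

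Cdkn1a was matched by Creld1 (0.074) and Dnajb4 (0.078). Both were lower in PPFP cells, which again follows from the choice by profile. Creld1 was at 68.0 ± 5.09 CPM in EV libraries and 38.6 ± 4.70 CPM in PPFP libraries without pioglitazone. Ccnd1 was matched by Rabep1 (0.077) and Rnf185 (0.082). The nearest genes of Cdkn2c were Pold1, a subunit of the replicative DNA polymerase, and Ezh2, the Polycomb methyltransferase, both at 0.096.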

How the data were processed

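The members and gene lists were chosen with earlier results of these data known. Per the labels, total RNA of 12 cultures was sequenced with a kit that does not mark strand, so reads of antisense or overlapping genes cannot be told apart. The study states 3 independent experiments, with the samples of an experiment sharing sequencing lanes, so that numbers may also mark experiments across the lines, which the labels do not say. According to the methods and the submitters' processing notes, the authors aligned reads to rn4 with TopHat2 2.0.11 and deposited integer counts per gene symbol from HTSeq 0.6.1p1 (intersection-strict), not normalized. Lists of ChIP-seq peaks without gene names were not used.

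Low counts were removed by filterByExpr, libraries were scaled by TMM, and tests were run in edgeR 4.0.16 (quasi-likelihood F test, R 4.3.3, limma 3.58.1) on the 6 libraries compared, with Benjamini-Hochberg adjustment over all genes tested. A gene passed at an adjusted p under 0.05. The 95% intervals and standard errors are those of this fit, CPM used TMM factors over 12 libraries, and profiles used a prior count of 0.5. Every group with at most 3 counts per library was called at the floor. Alternatives were edgeR's exact test, DESeq2 1.42.0, other scalings and filters, 1 fit of 12 libraries, a replicate block and leaving out each library. Figures were drawn with matplotlib 3.10.9.

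Same-numbered libraries of a line deviated together from their group means: over the genes tested, the correlations for numbers 1, 2 and 3 were 0.80, 0.55 and 0.55 in PPFP cells and 0.60, 0.77 and 0.80 in EV cells. PPFP number 3 correlated slightly better with another number (0.61). As every correlation was over 0.1, the numbers, given in the titles, were read as pairs within a line, and the paired test has the number as a block. The biological coefficient of variation fell from 0.126 to 0.0365 in PPFP cells and from 0.156 to 0.0372 in EV cells with this block. Pairing within a line was judged from the data. The p-values measure the spread between cultures of 1 line each. On simulated counts of the comparison without pioglitazone (10239 genes), 96 of 100 genes changed 2-fold and 100 of 100 genes changed by 2 on the log2 scale were called, with 7 false calls. The simulation gave every gene the same coefficient of variation and had no spread shared between genes of a library. Changes below 2-fold, as those of the members were there, were not simulated, so the chance of calling them was not measured.

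Named genes were all members, a fixed set of G1 genes and their regulators, and in each list the 3 genes with the largest called change in PPFP versus EV cells without pioglitazone and with pioglitazone in PPFP cells, and 2 genes of nearest profile per member. Motifs came from RefSeq promoters, GRCr8. A listed gene and the list of its targets are not reported here.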

Additional observations from a re-analysis of the deposited data

Results flagged for a closer look

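The difference between the pioglitazone responses of PPFP and EV cells, tested as the interaction of cell line and treatment with libraries paired by number within each line (edgeR's quasi-likelihood test), passed the threshold for 4 of 6 members and for 34.3% of all genes tested, with 19 of 20 proliferation genes higher. It was 0.25 on the log2 scale for Ccnd1 (higher in 3 of 3 PPFP pairs and 3 of 3 EV pairs), 0.45 for Ccnd2 (higher in 3 of 3 PPFP pairs and 2 of 3 EV pairs), -0.25 for Cdkn1a (lower in 3 of 3 PPFP pairs and 2 of 3 EV pairs) and -0.34 for Cdkn2b (lower in 3 of 3 PPFP pairs and 1 of 3 EV pairs). Without the pairing none of the 4 passed edgeR's quasi-likelihood test, with adjusted p-values between 0.0804 and 0.756, and DESeq2 called Cdkn2b (adjusted p = 0.0198). Without single libraries the unpaired difference was 0.0990 (without EV library 2 without pioglitazone) to 0.41 (without EV library 2 with it) for Ccnd1, 0.29 (without EV library 3 with it) to 0.62 (without EV library 2 with it) for Ccnd2, -0.36 to -0.13 (without PPFP library 1 without and with pioglitazone) for Cdkn1a and -0.37 to -0.32 for Cdkn2b, and none passed.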

How the results depend on the processing

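Of 444 alternative fits of single members, 397 kept the direction and side of the threshold, 6 lost a call, 15 gained one and 26 turned the sign of a change that had not passed. Without pioglitazone 3 members were called in every alternative but 1, which left out PPFP library 1 and called 4. With pioglitazone in both lines the count of members rose from 1 to 2 under the exact test, DESeq2, library size alone, 1 fit of 12 libraries and the replicate block, and was 1 to 2 without single libraries. For pioglitazone in PPFP cells it fell from 3 to 1 with 12 libraries in one fit and was 1 to 3 without single libraries. Without PPFP library 2 or 3 of either treatment, the genes called there fell from 1486 to between 632 and 755, and without PPFP library 1 of either treatment they were 1330 and 1729. For the interaction it rose from 0 to 1 with DESeq2 and to 4 with the replicate block within each cell line; the cause was not tested. Between the lines same-numbered libraries did not all deviate together, and whether a number marks a shared experiment is not given in the labels (correlations -0.24, 0.29 and -0.28 without and -0.23, 0.20 and -0.34 with pioglitazone, and only number 2 correlated best with its own). There the block gave 4050 genes in place of 4635 without and 4545 in place of 5425 with pioglitazone. The member it added there was Ccnd2 with pioglitazone (adjusted p = 0.0499). Beside this, Cdkn1a in PPFP cells and the interaction, the block changed no call of a member.

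Without single libraries the log2 fold changes whose sign turned had these ranges. Between the lines without pioglitazone, Ccnd2 was at -0.187 to 0.0551 and Cdkn2c at -0.0646 to 0.364, and with pioglitazone Cdkn2c was at -0.00611 to 0.452. For pioglitazone in PPFP cells, Cdkn1b was at -0.185 to 0.0665 and Cdkn2c at -0.238 to 0.156. In EV cells, Ccnd1 was at -0.0828 to 0.211, Ccnd2 at -0.100 to 0.211, Cdkn1a at -0.0751 to 0.0840, Cdkn1b at -0.0357 to 0.0590, Cdkn2b at -0.0145 to 0.0344 and Cdkn2c at -0.393 to 0.0895. In the interaction, Cdkn1b was at -0.189 to 0.0526 and Cdkn2c at -0.192 to 0.304, and Cdkn2c was at -0.0038 with library size alone. That scaling moved the median of all genes with pioglitazone from 0.01 to -0.12, and the genes called there from 2708 higher and 2717 lower to 2048 and 3543. Without pioglitazone the split moved from 2259 and 2376 to 1884 and 2920. Cdkn1c and Cdkn2a were at the floor, and the part of sequencing depth in this was not tested.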
